A study of Mus musculus with 6 samples.

Results

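Interferon-stimulated genes and the interferon regulatory factors (IRFs) were examined in bulk liver RNA from mice with and without CT26 tumors. The genes were chosen by symbol, as the IFIT, IFITM, Ifi-numbered, ISG, OAS, GBP, IRG (Irgm, Iigp, Tgtp, Igtp), Mx, IRF and STAT families with Usp18, Rsad2 and Bst2. This gave 79 of the 20140 genes listed, of which 76 had enough counts to be tested among 16370 genes in all (Oas1h, Ifi206 and Ifi214 had not). Of the 79, 6 carry such a symbol but are not known interferon-induced genes or IRFs (Irf2bp1, Irf2bp2, Irf2bpl, Isg20l2, Ifitm5, Ifitm10).

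The series holds 6 livers taken on day 21, with 2 biological replicates in each of 3 groups. The sham livers are labelled control and PBS. The intra-C and intra-S livers are both labelled CT26, a mouse colon carcinoma line from the BALB/c strain, and these names are taken to stand for the cecal orthotopic model, used by the study for the premetastatic niche (PMN), and for injection into the spleen, used for liver metastasis. The labels give no strain, sex, age or genotype. The study shows both CT26 models in BALB/c mice. Mice for the tumor models were bought at 6 to 10 weeks of age. Whole tissue was sequenced, so fewer cells of a type and less RNA per cell cannot be told apart, tumor cells in an intra-S liver carry the same mouse genes as the host, and the tumor stage and the route of injection change together.

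Interferons are cytokines that switch on an antiviral program. Type I interferons signal through IFNAR1 and IFNAR2 to a complex that holds STAT2 and IRF9 and binds the interferon-stimulated response element (ISRE), whereas interferon gamma signals through IFNGR1 and IFNGR2 to the gamma-activated site (GAS). In the liver, hepatocytes, Kupffer cells and endothelial cells all respond to both. The families below were grouped as type I (IFIT, OAS, Mx, ISG15 and other antiviral effectors), gamma-type (the GBP and IRG GTPases), the p200 DNA sensors, the IFITM membrane proteins and the regulators (STATs and IRFs), although many members respond to either interferon.

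The promoters show which members carry the sequences that these factors read. Promoters of 60 of the 79 members were found in the RefSeq table (build GRCm38.p6, which is mm10). An ISRE core was searched as GAAA, any 2 bases and GAAA, on both strands, and a GAS as TTC, any 3 bases and GAA, which reads the same on both strands, in the 250 bases before the gene's start. A gene was counted if any of its promoters held the motif. The ISRE core was present in 32 of the 60 members (53.3%) and in 3.46% of all 27025 genes with a promoter. The GAS was present in 16 members (26.7%) and in 8.13% of these genes. By family, the ISRE core was found in 10 of 11 gamma-type, 12 of 20 type I and 7 of 9 p200 genes, and the GAS in 6 of 11, 4 of 20 and 1 of 9. The windows below were chosen to show the forms the motifs take in members of the families described later. They are written 5′ to 3′ on the gene's own strand with both motifs in capitals, and a match is a description of the sequence, not of binding.

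Of the 6 IRG promoters found, 4 share a nearly identical block in which a GAS is followed by an ISRE core:

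Igtp, chr11:58199503-58199539, plus strand: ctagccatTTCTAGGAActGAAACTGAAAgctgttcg

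Irgm2, chr11:58214894-58214930, plus strand: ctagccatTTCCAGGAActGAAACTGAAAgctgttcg

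Tgtp1, chr11:48992306-48992342, minus strand: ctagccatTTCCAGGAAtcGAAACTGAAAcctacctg

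Tgtp2, chr11:49064265-49064301, minus strand: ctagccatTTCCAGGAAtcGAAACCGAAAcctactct

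A pair of GBP genes, an IFIT gene, Isg15 and Bst2 show the ISRE core alone or in repeats, on either strand, with GAS matches in Gbp7 and Bst2, and in Bst2 the motifs overlap:

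Gbp2, chr3:142620596-142620621, plus strand: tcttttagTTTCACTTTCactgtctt

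Gbp7, chr3:142530222-142530300, plus strand: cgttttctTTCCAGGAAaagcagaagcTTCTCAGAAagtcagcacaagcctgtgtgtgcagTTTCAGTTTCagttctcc

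Ifit1, chr19:34640777-34640821, plus strand: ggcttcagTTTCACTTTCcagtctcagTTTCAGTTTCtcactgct

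Isg15, chr4:156200867-156200904, minus strand: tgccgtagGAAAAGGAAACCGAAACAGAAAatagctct

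Bst2, chr8:71537579-71537616, minus strand: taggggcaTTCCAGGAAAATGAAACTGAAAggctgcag

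The same Ifit1 stretch, read on the other strand, is the promoter of its neighbor Ifit1bl2. Among the members called higher in tumor-bearing livers below, Ifi207 has an ISRE core, Ifi202b, Ifitm6, Isg20 and Irf8 have GAS matches without one, Tgtp1 has both, Irf5 and Ifi30 have neither, and Ifi27l2b and Usp18 were not in the table. Irf1, a textbook target of interferon gamma, has a GAS:

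Ifi207, chr1:173741833-173741858, minus strand: tagccaggGAAATCGAAAattaagaa

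Ifi202b, chr1:173982976-173983000, minus strand: gtcatgatTTCTCAGAAtaactact

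Ifitm6, chr7:141016893-141016910, minus strand: atatgaacTTCCTTGAAa

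Isg20, chr7:78913343-78913367, plus strand: ggggagggTTCTTGGAAtttttcct

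Irf8, chr8:120736179-120736221, plus strand: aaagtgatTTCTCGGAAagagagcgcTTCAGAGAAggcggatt

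Irf1, chr11:53769916-53769940, plus strand: agcctgatTTCCCCGAAatgatgag

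Values below are CPM (a gene's count relative to the library total, as scaled by TMM), in the order liver 1 and liver 2 of a group, and a gene is called at an adjusted p under 0.05 in edgeR's quasi-likelihood test over all 16370 genes. Library totals ranged from 32838321 to 43368309 counts, and the upper limit for a gene without a count, taken as 3 counts, was 0.0679 to 0.0928 CPM by liver. Without TMM the median of all genes moved to -0.25 in intra-C and -0.23 in intra-S against sham on the log2 scale, so changes are given relative to the bulk of genes. The intra-S livers stand apart from each other. Of the 34 members with a mean of at least 10 CPM, 22 (64.7%) differed over 2-fold between the intra-S livers, against 17.0% of all 7261 genes at that level, while 1 did so between the sham and 2 between the intra-C livers. Summed CPM of 12 neutrophil markers was 3.87 and 5.12 in sham, 297 and 653 in intra-C and 1110 and 439 in intra-S livers. All 12 were called higher in both tumor groups, with Mpo, Elane and Camp at a count of 0 in both sham livers. Of 10 monocyte and macrophage markers 5 were called higher in each tumor group (57.0 and 64.0, 267 and 389, 270 and 395 CPM), and of 5 Kupffer cell markers 5 in intra-C and 4 in intra-S livers (143 and 139, 684 and 844, 375 and 790 CPM). None of 11 tested T and NK cell markers was called (4.66 to 14.5 CPM summed). None of 7 B and plasma cell and none of 7 conventional dendritic cell markers was called either, and of 6 plasmacytoid dendritic cell markers, of which 2 were tested, Tcf4 was called higher in intra-S livers. Of 6 endothelial markers 3 were called higher in intra-C and 4 in intra-S livers, and 8 hepatocyte markers, of which Alb gives most of the CPM, summed to 108059 to 182732 CPM, with 1 of the 8 called higher and 1 lower in intra-S livers. The part of these cells in the results was not tested.

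In the intra-C livers, 7 interferon genes rose against sham, namely Ifitm6, Ifi27l2b, Ifi207, Ifi202b, Irf8, Irf5 and Ifi30, and none was called lower. The 7 are 9.21% of the 76 tested, beside 4.92% of all genes called higher and 2.38% called lower. At an unadjusted p under 0.05, 2 members were lower (Irf1 and Irf3), beside 11.8% of all genes, and DESeq2 called 13 higher (17.1%, beside 10.4% of all genes) and 0 lower (beside 6.78%). Of the 76, 39 (51.3%) had both intra-C livers above both sham livers, against 34.4% of all genes, and 13 (17.1%) had both below, against 34.0%. Leaving out a liver moved the counts of members and of all genes together. Without either sham liver 0 members and 0 genes in all were called higher, and without intra-C liver 1 or liver 2 it was 0 members beside 62 or 57 genes in all. Without either intra-S liver, which enters this comparison mainly through the estimate of the spread, 25 members were called higher and 7 lower, beside 2546 or 2502 genes in all higher and 2112 or 2089 lower (without liver 1 or liver 2). The members called higher were a larger share of the members tested than of all genes, and those called lower a smaller share. The same members were called in both of these fits and in one of only the sham and intra-C livers. They include Gbp8, Ifi204, Ifi205, Ifi211, Ifitm3, Irf2, Oas1a, Tgtp1 and Usp18 among those higher, and those lower were Bst2, Gbp10, Gbp11, Gbp3, Igtp, Irf1 and Irf3. In the intra-S livers, 10 members rose against sham, the same 7 with Tgtp1, Usp18 and Isg20, which is 13.2% beside 6.78% of all genes. None was called lower, beside 3.95% of all genes. Bst2, Gbp11 and Igtp were lower at an unadjusted p under 0.05, beside 13.0% of all genes, and DESeq2 called 15 higher (19.7%, beside 12.6% of all genes) and 1 lower, Igtp (1.32%, beside 8.95%). Both intra-S livers were above both sham livers for 21 members (27.6%, against 30.4% of all genes) and below for 12 (15.8%, against 30.0%). Without intra-S liver 1, 28 members were called higher and 3 lower, beside 1683 and 1217 genes in all. Without intra-S liver 2, 13 were called higher and 23 lower, beside 3010 and 2683 genes in all. Gbp8 was among those higher without liver 1, and without liver 2 Ifi47 was among those higher and Gbp2 among those lower. Without either sham liver 0 members and 0 genes in all were called higher, and without intra-C liver 1 or liver 2 it was 3 members, beside 375 or 348 genes in all. These 3 were Ifitm6, Irf8 and Irf5, and a fit of only the sham and intra-S livers called the same 3, so that Ifi27l2b, Ifi207, Ifi202b, Ifi30, Tgtp1, Usp18 and Isg20 lost their intra-S calls in each of these fits. The comparisons share the sham livers, so their overlap is no independent finding.

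**Figure D1:**
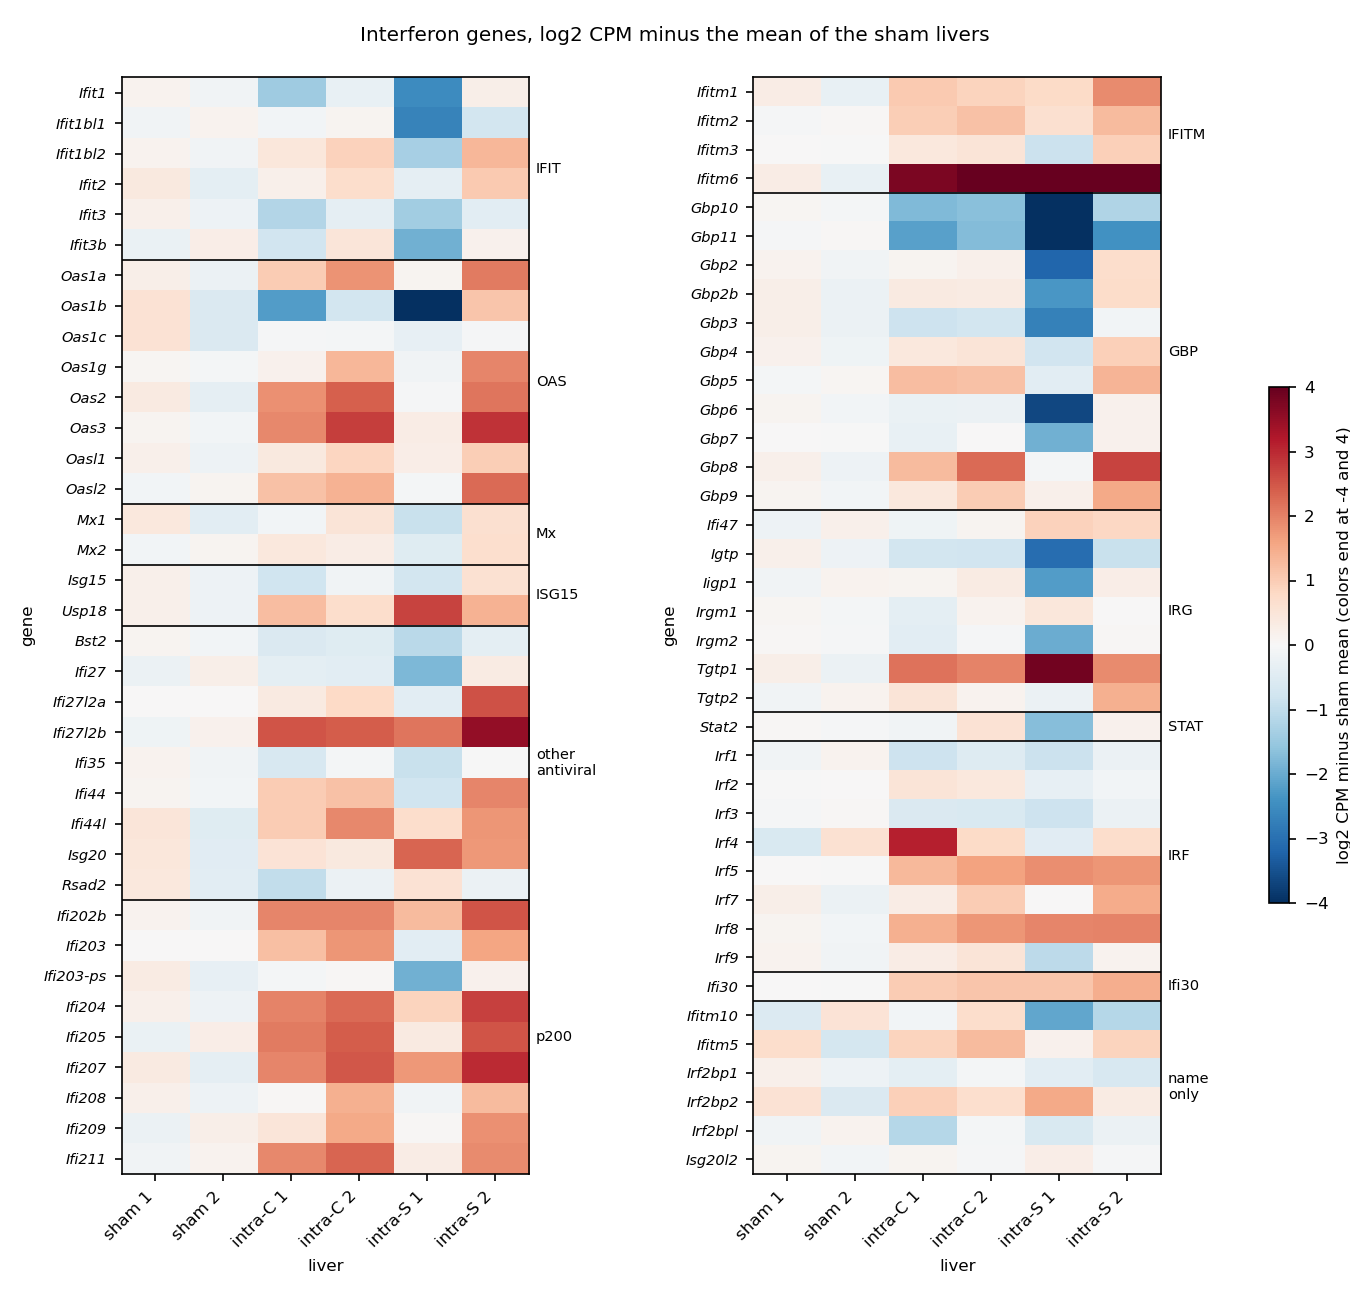
Log2 CPM of tested interferon genes in each of the 6 livers (columns), minus the mean of the sham livers, with genes in rows grouped by family and the color scale ended at -4 and 4. The column of intra-S liver 1 is blue for most GBP genes, Iigp1, Igtp and Stat2. In intra-S liver 2, Iigp1 and Stat2 are near sham and Gbp10, Gbp11 and Igtp still blue, while p200 genes are red in both intra-C livers and in intra-S liver 2.

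Little of the interferons themselves was measured. Of 20 genes of type I and III interferons, 1 was analysed, Ifnk, with at most 0.407 CPM (intra-C liver 1), too low to be tested, and Ifng was not analysed here. Both chains of the type I receptor and of the gamma receptor had counts in every liver, whereas Ifnlr1, the type III receptor chain, had 1 count in sham liver 1 (0.0246 CPM, under the limit above) and at most 1.25 CPM (intra-S liver 1). Ifnar1 read 37.0 and 37.5 CPM in sham, 36.9 and 39.7 in intra-C and 32.7 and 31.9 in intra-S livers, and was not called (adjusted p = 0.914 and 0.461). Ifnar2, its partner, read 55.2 and 62.8, 61.1 and 64.5, and 61.8 and 73.1 CPM (adjusted p = 0.803 and 0.543). The gamma receptor chains behaved unequally. Ifngr1, which binds the ligand, read 14.0 and 15.7, 27.4 and 35.1, and 55.3 and 38.4 CPM, with a log2 fold change of 1.07 ± 0.25 (SE) in intra-C (adjusted p = 0.0547) and of 1.66 ± 0.25 in intra-S livers (adjusted p = 0.0156). Ifngr2, the signaling chain, read 14.0 and 17.5, 17.3 and 13.8, and 21.4 and 17.8 CPM and was not called (adjusted p = 0.968 and 0.401). All 4 tumor livers were above both sham livers for Ifngr1, while for Ifngr2 the intra-C and sham values overlapped. Of 9 receptor and kinase genes, Ifngr1 and Il10rb, the chain shared by the receptors of type III interferons and interleukin 10, were called higher in intra-S (beside 6.78% of all genes) and none in intra-C livers (beside 4.92%). Il10rb read 4.16 and 4.69 CPM in sham and 9.68 and 14.3 CPM in intra-S livers (log2 fold change 1.44 ± 0.28, adjusted p = 0.0303).

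Stat2 and Irf9 were not called in any comparison. Stat2, used by the type I pathway, read 40.7 and 37.4, 35.2 and 58.9, and 12.02 and 43.7 CPM (0.27 ± 0.57 and -0.49 ± 0.57, adjusted p = 0.796 and 0.6). Irf9, the DNA-binding subunit of the type I complex, read 22.2 and 18.2, 24.6 and 28.9, and 9.59 and 22.01 CPM (0.41 ± 0.38 and -0.35 ± 0.38, adjusted p = 0.539 and 0.576). For both, intra-S liver 1 was the lowest of the 6 livers and intra-S liver 2 was at or near the sham level. For Irf9 both intra-C livers lay above the sham and the intra-S livers, and without intra-S liver 2 it was called lower in intra-S than in intra-C livers (adjusted p = 0.0064). Without intra-S liver 2, each was called lower in intra-S against sham, and without intra-S liver 1 neither was called.

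Irf8 and Irf5 were the IRFs that rose. Irf8, a factor of monocyte, macrophage and dendritic cell development, read 3.87 and 3.31 CPM in sham, 9.60 and 12.4 in intra-C, and 13.9 and 14.4 in intra-S livers. This was 3.06-fold in intra-C (log2 fold change 1.61 ± 0.24, adjusted p = 0.0195) and 3.95-fold in intra-S livers (1.98 ± 0.25, adjusted p = 0.00986). Irf5, which acts downstream of Toll-like receptors in myeloid cells, read 2.32 and 2.29, 5.73 and 7.12, and 8.46 and 7.95 CPM (1.48 ± 0.26 and 1.83 ± 0.26, adjusted p = 0.029 and 0.0142). For both factors all 4 tumor livers were above both sham livers and the intra-S livers nearly equal, unlike most members. In a fit without either intra-S liver, Irf8 and Irf5 were called in intra-C, and without either intra-C liver they were called in intra-S. Neither was called without a sham liver, nor in intra-C without an intra-C liver, and the intra-C call of Irf5 was also lost with limma on log2(TPM + 1). Of Irf5's exon bases 14.1% lie opposite exons of Tnpo3 on the other strand, so that the 2 cannot be told apart there.

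The other IRFs described here were not called in either tumor group in the fit of all 6 livers. Irf1, the early target of both pathways, read 19.8 and 23.7, 12.1 and 15.0, and 11.8 and 18.6 CPM (log2 fold change -0.68 ± 0.28 and -0.52 ± 0.28, adjusted p = 0.177 and 0.262). Irf3, the factor activated by nucleic acid sensors, read 37.5 and 40.8, 26.2 and 25.5, and 21.8 and 32.9 CPM (-0.60 ± 0.24 and -0.52 ± 0.24, adjusted p = 0.17 and 0.201). All tumor livers were below both sham livers for Irf1 and for Irf3. Both were called lower in intra-C in the fit of only those groups and without either intra-S liver (adjusted p down to 0.0288 and 0.0153), and in intra-S without intra-S liver 2 (adjusted p = 0.0249 and 0.00894). Irf7, the amplifier of the type I response, read 15.2 and 11.1, 16.02 and 26.4, and 13.0 and 36.5 CPM (0.69 ± 0.50 and 0.91 ± 0.50, adjusted p = 0.425 and 0.274), with intra-S liver 1 between the sham livers and intra-S liver 2 the highest. It was called higher in intra-S without intra-S liver 1 (adjusted p = 0.0195). Irf2, a partner and antagonist of Irf1, read 19.2 and 19.96, 27.9 and 26.3, and 15.7 and 18.1 CPM (0.47 ± 0.18 and -0.22 ± 0.18, adjusted p = 0.163 and 0.464). Both of its intra-C livers were thus above sham and both of its intra-S livers below, and it was called higher in intra-C in the fit of only those groups and without either intra-S liver (adjusted p down to 0.0342). Irf4, a lymphocyte and dendritic cell factor, read 0.0986 and 0.294, 1.94 and 0.340, and 0.117 and 0.319 CPM, so that its fitted 2.51 ± 1.08 in intra-C livers (adjusted p = 0.195) rests on intra-C liver 1.

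**Figure D2:**
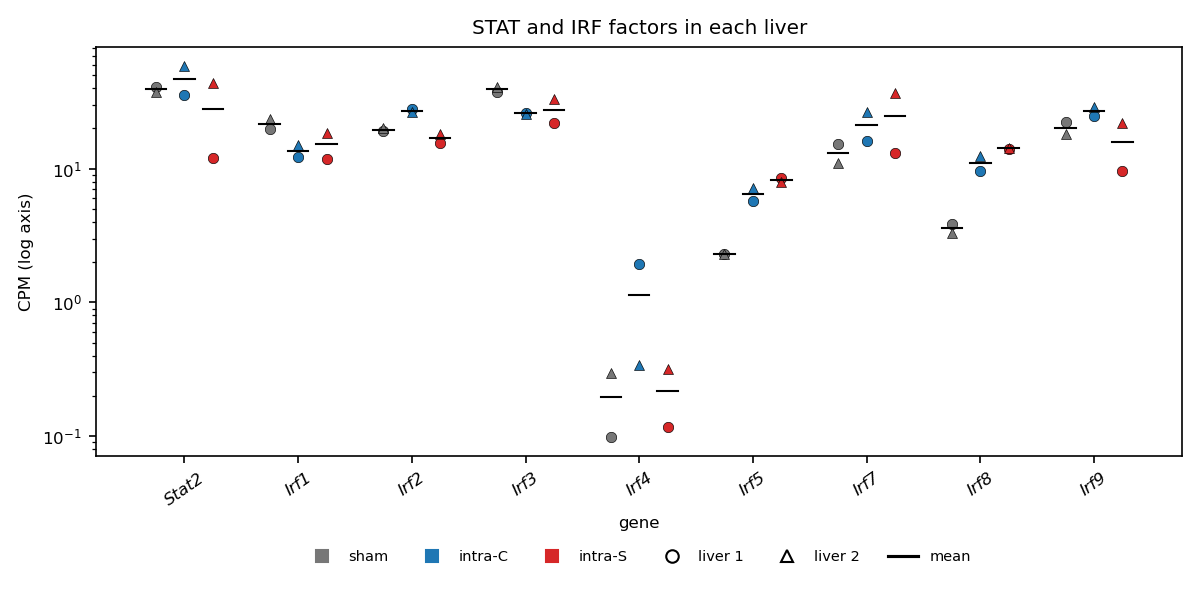
CPM (log axis) of Stat2 and IRF factors in the 6 livers, with colors for the groups, circles for liver 1, triangles for liver 2 and a bar for each group's mean. Irf5 and Irf8 are the factors drawn whose 4 tumor livers lie clear above sham, and the circles of intra-S liver 1 lie lowest of the 6 livers for Stat2, Irf9, Irf1, Irf2 and Irf3.

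Of the 27 tested members of the type I families, 1 was called higher in intra-C (Ifi27l2b, beside 4.92% of all genes) and 3 in intra-S livers (Ifi27l2b, Usp18, Isg20, beside 6.78% of all genes). The median log2 fold change of the 27 was 0.42 in intra-C and 0.47 in intra-S livers, beside 0.01 and 0.04 over all genes. In intra-C livers it was 0.16 without TMM, where that of all genes was -0.25, and 0.16 with limma on log2(TPM + 1), and leaving out 1 liver moved it between 0.21 (without intra-C liver 2) and 0.70 (without sham liver 1). With limma the intra-S median was 0.04 on log2(TPM + 1) and 0.02 on log2(TPM + 0.1), where that of all genes was -0.15 and -0.26. Ifi27l2b, of the ISG12 family of mitochondrial proteins (chr12:103450898-103457223), read 2.09 and 2.67 CPM in sham, 13.6 and 13.0 in intra-C, and 10.6 and 27.9 in intra-S livers, a log2 fold change of 2.48 ± 0.47 (adjusted p = 0.0338) and 3.01 ± 0.48 (adjusted p = 0.0172). Its 4 tumor values all lie above sham, and its intra-C call was lost with limma on log2(TPM + 1). Usp18, the protease that removes ISG15 and dampens IFNAR2 signaling (chr6:121245906-121270917), read 10.3 and 7.65, 20.8 and 14.4, and 57.7 and 23.2 CPM, with 0.97 ± 0.45 in intra-C (adjusted p = 0.218) and 2.17 ± 0.46 in intra-S livers (adjusted p = 0.0351). Isg20, an antiviral exonuclease (chr7:78913396-78920396), read 1.75 and 0.905, 1.88 and 1.67, and 6.50 and 4.34 CPM, with 0.42 ± 0.44 (adjusted p = 0.58) and 2.03 ± 0.44 (adjusted p = 0.0381). The call of Usp18 was lost with both limma fits, and its intra-S log2 fold change ran from 1.38 to 2.69 over the alternatives. For Usp18 and Isg20, intra-S liver 1 was the highest of all, the reverse of most members.

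The classical type I markers were not among the calls. Isg15, the ubiquitin-like modifier, read 6.80 and 5.18, 3.39 and 5.38, and 3.50 and 9.08 CPM, with intra-S values on both sides of sham (adjusted p = 0.603 and 0.938). The highest IFIT gene by TPM, Ifit3, which helps IFIT1 bind foreign RNA caps, read 8.06 and 6.13, 3.08 and 5.45, and 2.65 and 5.28 CPM (-0.74 ± 0.44 and -0.84 ± 0.44, adjusted p = 0.338 and 0.258). Its tumor livers were all below both sham livers, it was called lower in intra-S without intra-S liver 2 (adjusted p = 0.0415), and 31.7% of its 100-base windows occur also in Ifit3b, so that reads of the 2 could not be fully separated. Mx2, of the dynamin-like Mx family and annotated in RefSeq as a transcribed pseudogene, read 5.42 and 6.27, 7.89 and 7.21, and 4.17 and 9.27 CPM (adjusted p = 0.593 and 0.765). Bst2 (tetherin), which holds budding viruses at the membrane, read 159.9 and 137.7, 99.1 and 104.6, and 70.6 and 113.0 CPM. Its log2 fold change was -0.55 ± 0.27 in intra-C and -0.70 ± 0.27 in intra-S livers (adjusted p = 0.244 and 0.141), with every tumor liver below both sham livers. Bst2 was called lower in intra-C in the fit of only those groups and without either intra-S liver (adjusted p down to 0.0245), and in intra-S without intra-S liver 2 (adjusted p = 0.00465). The OAS family holds enzymes that make the activator of RNase L, although Oas1b is annotated in RefSeq as a transcribed pseudogene. Its 8 tested genes had medians of 1.09 and 1.35 (0.58 and 0.52 with limma on log2(TPM + 1)), without a call in the fit of all 6 livers. DESeq2 called Oas2 and Oas3 higher in intra-C (beside 10.4% of all genes) and Oas3 in intra-S livers (beside 12.6%). Oas1a, the highest by TPM, read 2.00 and 1.45, 3.54 and 6.06, and 1.84 and 7.43 CPM (adjusted p = 0.214 and 0.206). Both intra-C livers were above sham for Oas1a, and of the intra-S livers only liver 2. It was called higher in intra-C in the fit of only those groups and without either intra-S liver (adjusted p down to 0.0209), and in intra-S without intra-S liver 1 (adjusted p = 0.0131). The 6 IFIT genes had medians of -0.02 and -0.57. Windows shared with Oas1g make up 40.9% of Oas1a.

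The p200 genes, sensors of DNA in the nucleus and cytosol that lie together on chromosome 1, had a family median of 1.96 in intra-C and 1.39 in intra-S livers over 9 tested members. With limma on log2(TPM + 1) these medians were 0.88 and 0.35, and the intra-S median was 0.31 without intra-S liver 2. Ifi202b (chr1:173962569-173982844), the member that lacks a pyrin domain, read 3.20 and 2.60 CPM in sham, 11.4 and 11.3 in intra-C, and 6.94 and 16.7 in intra-S livers, which was 3.89-fold (log2 fold change 1.96 ± 0.43, adjusted p = 0.0467) and 4.07-fold (2.02 ± 0.43, adjusted p = 0.0359). Ifi207 (chr1:173723424-173741831) read 2.86 and 1.70, 8.61 and 12.6, and 7.495 and 17.7 CPM (2.22 ± 0.50 and 2.47 ± 0.50, adjusted p = 0.0496 and 0.0322). All tumor livers were above both sham livers for these 2 genes, and both calls in intra-C livers were lost without TMM, with the replicate block and with both limma fits on TPM. In intra-S livers, both calls were lost with both limma fits and in a fit of only those groups, and that of Ifi202b also without TMM. Neither was called in either group without a sham or an intra-C liver. In edgeR's fit of all 6 livers the 2 were the only p200 members called in either tumor group. This stands beside 4.92% and 6.78% of all genes called higher. Ifi204, Ifi205 and Ifi211 had fitted values of 2.14, 2.46 and 2.23 in intra-C livers (adjusted p = 0.0795, 0.136 and 0.0915). DESeq2 also called Ifi204 and Ifi211 higher in intra-C (beside 10.4% of all genes) and Ifi204 in intra-S livers (beside 12.6%). Per liver, the family median over the sham mean was 1.92 and 1.94 in intra-C livers and 0.29 and 1.90 in intra-S livers, so intra-S liver 1 lay near sham and the other tumor livers together. Kupffer cell markers summed to 684 and 844 CPM in intra-C and 375 and 790 in intra-S livers, beside 143 and 139 in sham, and the part of these cells was not tested. Of Ifi211, 56.9% of windows occur in other p200 genes.

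IFITM proteins hinder viral fusion at membranes, and Ifitm3 and Ifitm2 were the most abundant of the interferon genes by mean TPM. TPM is a length-corrected unit in which levels of genes can be compared. Ifitm3 stood at 1149.5 and Ifitm2 at 439.1, followed by Bst2 at 290.9, Gbp11 at 76.4, Ifi27 at 71.3 and Iigp1 at 61.7. Ifitm1, at 29.4, and Ifitm6, at 22.0, came lower. The place of Gbp11 rests on the sham livers (167.4 and 181.3 TPM). In each tumor liver it was below Ifi27 and Iigp1, at 33.2 and 47.6 TPM in intra-C and 1.44 and 27.4 in intra-S livers. Ifitm3 read 312.5 and 297.8 CPM in sham, 411.4 and 441.5 in intra-C, and 169.4 and 587.4 in intra-S livers (log2 fold change 0.48 ± 0.52 and 0.31 ± 0.52, adjusted p = 0.597 and 0.726). Its intra-S livers were thus the lowest and the highest of the 6, and its direction against sham depends on which of them is used. It was called higher in intra-C in the fit of only those groups and without either intra-S liver (adjusted p = 0.0246, 0.0237 and 0.0277). Ifitm6 (chr7:141015812-141016892), known from myeloid cells and their precursors, made the largest rise of any member, from 0.296 and 0.181 CPM in sham to 3.79 and 6.81 in intra-C and 20.4 and 6.94 in intra-S livers. This was 22.03-fold (4.46 ± 0.69, adjusted p = 0.0206) and 56.9-fold (5.83 ± 0.72, adjusted p = 0.00965). These folds were not stable: over the alternatives the log2 fold change ran from 3.31 (limma on log2(TPM + 1)) to 4.85 (without sham liver 1) in intra-C, and from 4.39 (limma on log2(TPM + 1)) to 6.41 (without intra-S liver 2) in intra-S livers, and in both it was no longer called without a sham liver. Of the tumor livers, intra-S liver 1 was the highest and intra-C liver 1 the lowest both for Ifitm6 and for the summed neutrophil markers (1110 and 297 CPM), and the part of neutrophils was not tested. Ifi30, the thiol reductase of lysosomal antigen processing (chr8:70762773-70766663), read 12.7 and 12.3, 25.01 and 27.01, and 27.2 and 33.8 CPM (1.06 ± 0.20 and 1.29 ± 0.20, adjusted p = 0.0319 and 0.0156), every tumor liver above sham. Its intra-C call was lost without TMM and with both limma fits.

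**Figure D3:**
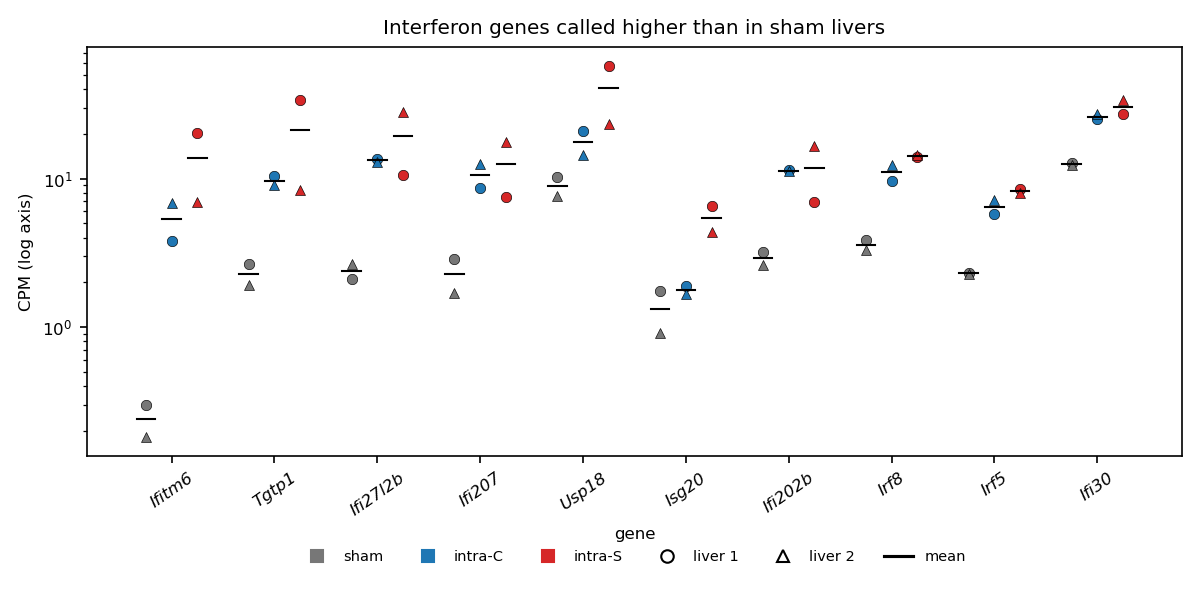
CPM (log axis) of the 10 interferon genes called higher than sham in at least 1 tumor group, with colors for the groups, circles for liver 1, triangles for liver 2 and a bar for each group's mean. Irf8, Irf5 and Ifi30 have close replicates, whereas intra-S liver 1 lies above liver 2 for Ifitm6, Tgtp1, Usp18 and Isg20 and below it for Ifi27l2b, Ifi207 and Ifi202b.

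Of the 18 gamma-type GTPases, 1 was called higher in intra-S livers, beside 6.78% of all genes, and none in intra-C livers, beside 4.92%. Their median log2 fold change was 0.05 in intra-C livers (-0.21 without TMM, where that of all genes was -0.25, and -0.13 with limma on log2(TPM + 0.1), where it was -0.17). In intra-S livers it was -0.16, and it depended on the fit, at -0.60 with the replicate block and, with limma, at -0.79 on log2(TPM + 1) and -1.11 on log2(TPM + 0.1). The 11 guanylate-binding proteins (GBPs), which attack the vacuoles of intracellular microbes, had no call. Gbp11, the highest of them by mean TPM and annotated in RefSeq as a transcribed pseudogene (chr5:105323026-105346476), read 201.8 and 219.1 CPM in sham, 47.1 and 63.2 in intra-C, and 2.22 and 39.2 in intra-S livers. Its log2 fold change was -1.93 ± 1.05 in intra-C (adjusted p = 0.291) and -3.34 ± 1.11 in intra-S livers (adjusted p = 0.104). All tumor livers were far below sham, but the intra-S livers differed 17.7-fold from each other, and Gbp11 was called lower in intra-C when either intra-S liver was left out of the fit. It was also called lower in intra-S livers when either of them was left out. Gbp10, called lower in the same fits, followed the same order, at 23.9 and 21.3, 6.52 and 7.02, and 0.758 and 9.77 CPM (adjusted p = 0.278 and 0.188), but 60.9% of its windows occur also in Gbp6 or Gbp8. Gbp2, a gamma-inducible GBP, read 10.2 and 8.47, 10.03 and 10.7, and 0.992 and 15.2 CPM, so that only intra-S liver 1 was below sham (adjusted p = 0.94 and 0.91). Gbp8 read 2.93 and 2.22, 6.21 and 12.5, and 2.39 and 16.8 CPM, with intra-S liver 1 at the sham level and the other tumor livers above (adjusted p = 0.217 and 0.189).

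Among the 7 immunity-related GTPases (IRGs), which also act on pathogen vacuoles, Tgtp1 rose in intra-S livers. It read 2.64 and 1.92 CPM in sham, 10.4 and 8.97 in intra-C, and 33.7 and 8.42 in intra-S livers (2.08 ± 0.62, adjusted p = 0.0949, and 3.21 ± 0.65, adjusted p = 0.0313; chr11:48985329-48992246). The intra-S call was lost with limma on log2(TPM + 1), and over the alternatives the intra-S log2 fold change of Tgtp1 ran from 1.89 to 3.89. Tgtp2, which shares 76.8% of its windows with other genes, chiefly Tgtp1, read 1.13 and 1.40, 1.81 and 1.39, and 1.08 and 3.48 CPM (adjusted p = 0.762 and 0.386). The pair is therefore uncertain, since only the reads unique to each could be counted. Iigp1, the most abundant IRG by TPM, read 160.1 and 196.4, 190.5 and 222.1, and 37.7 and 215.8 CPM (0.21 ± 0.69 and -0.49 ± 0.69, adjusted p = 0.877 and 0.671). Igtp (Irgm3), a regulator of the other IRGs, read 44.2 and 33.9, 23.2 and 22.4, and 4.61 and 20.6 CPM (-0.78 ± 0.60 and -1.62 ± 0.62, adjusted p = 0.456 and 0.138). All 4 tumor livers were below sham for Igtp, whereas for Iigp1 only intra-S liver 1 was. Igtp was called lower in intra-C in the fit of only those groups and without either intra-S liver, and in intra-S with DESeq2 and when either intra-S liver was left out. Iigp1 was called lower in intra-S without intra-S liver 2 (adjusted p = 0.000566). Ifi47 read 11.5 and 15.4, 11.7 and 14.3, and 25.3 and 24.0 CPM (-0.05 ± 0.23 and 0.87 ± 0.23, adjusted p = 0.912 and 0.0609), and was called higher in intra-S with DESeq2. Of the genes whose promoter block is printed above, Igtp, Irgm2 and Tgtp2 were lowest of the 6 livers in intra-S liver 1 and Tgtp1 was highest there, with the caution just given for Tgtp1 and Tgtp2.

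The livers injected through the spleen differed most among themselves. Intra-S liver 1 was the lowest of the 6 livers for 37 of the 76 members (48.7%, against 26.0% of all genes) and the highest for 10 (13.2%, against 25.6%). Intra-S liver 2 was the highest for 38 of 76, against 15.5% of all genes, and the lowest for 1, Irf2bp1 (1.32%, against 13.1%). Liver 1 was below liver 2 in 64 of the 76 members (84.2%) and in 51.3% of all genes, in 11 of 11 GBP, 8 of 8 OAS, 6 of 6 IFIT and 9 of 9 p200 genes, but in 4 of 7 IRG genes and 1 of 2 genes of the ISG15 system. The median log2 difference between the livers, liver 2 minus liver 1, was 2.13 for gamma-type and 1.53 for type I families and 0.03 for all genes. Between the intra-C livers the same medians were 0.10 and 0.49, and between the sham livers -0.18 and -0.28. Over 4-fold differences within the intra-S pair were seen for 11 of the 34 members with at least 10 CPM (32.4%, against 3.93% of all genes), namely Gbp10, Gbp11, Gbp2b, Gbp3, Gbp7, Ifi27, Ifi44, Igtp, Iigp1, Irgm2 and Tgtp1, and of these Tgtp1 alone was higher in liver 1. Liver 1 had the higher sum of neutrophil markers (1110 against 439 CPM) and the lower sums of Kupffer cell (375 against 790 CPM), T and NK cell (9.51 against 14.5 CPM) and B and plasma cell markers (5.98 against 18.0 CPM). The Kupffer cell markers were all lower in liver 1, but the other lists held exceptions. Cd3d (2.48 against 0.859 CPM), Cd3e (1.28 against 0.417 CPM), Prf1 and Pax5 were higher in liver 1, and Mpo (19.3 against 21.7 CPM) was lower there. Jchain (3.21 against 13.4 CPM) made up most of the B and plasma cell sum. Endothelial and hepatocyte markers were mixed: Lyve1 (111.8 against 14.2 CPM) and Alb (156594 against 108439 CPM) were higher in liver 1, and Clec4g (36.9 against 69.97 CPM) and Apoa1 (8193 against 13960 CPM) in liver 2. Their part in the difference was not tested.

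**Figure D4:**
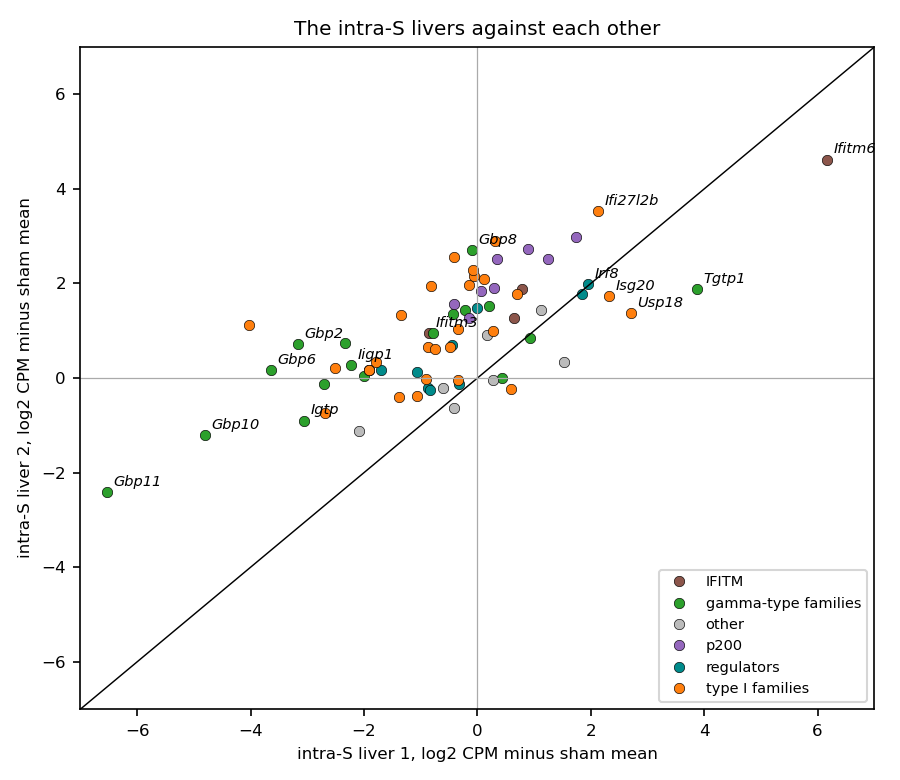
Each point is 1 of 74 tested interferon genes, with log2 CPM minus the sham mean in intra-S liver 1 on the horizontal and in intra-S liver 2 on the vertical axis, colored by class, and the diagonal marks equal values. Of the points, 63 lie above the diagonal, with Gbp11 and Gbp10 farthest to the left, and Ifitm6, Tgtp1, Usp18 and Isg20 lie to the right of 0 and below it.

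Set side by side, the type I and gamma-type families lay farthest apart in intra-S liver 1, without a test of the families. Per liver, the median over the sham mean was 0.20 and 0.50 for type I and -0.04 and 0.14 for gamma-type families in intra-C livers. In intra-S livers it was -0.42 and 1.04 for type I and -1.96 and 0.49 for gamma-type families, beside 0.02 and 0.01 for all genes. The gamma-type median was below the type I median in all 4 tumor livers. In the wider lists described below the medians were 0.20 for other type I response genes and 0.16 for gamma response and antigen processing genes in intra-C livers, and stood in the reverse order in intra-S livers (-0.14 and 0.14). The medians of several families in intra-S livers, given without a test, changed direction with the liver used. Without liver 1 they were 0.28 for IRG, 0.71 for GBP, 0.19 for IFIT and 2.06 for OAS genes, and without liver 2 they were -0.23, -2.39, -2.17 and -0.09. Those of p200 (2.26 and 0.31), IFITM (1.57 and 0.70) and ISG15 system genes (0.99 and 0.96) stayed positive without liver 1 and without liver 2. Against sham, the medians of the intra-S livers were 1.01 for type I and 0.49 for gamma-type families without liver 1, and -0.49 and -1.97 without liver 2.

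Against the intra-C livers, the intra-S livers showed no called member, and no gene of the 16370 was called in either direction (0% and 0%). At an unadjusted p under 0.05, edgeR gave 4 members higher in intra-S (Ifi47, Ifitm6, Isg20, Usp18), beside 6.99% of all genes, and 1 lower (Irf2), beside 6.41%, and DESeq2 called Ifi47 and Isg20 higher (2.63%, beside 1.47% of all genes) and none lower (beside 1.73%). Ifi47 was 0.92 ± 0.23 higher on the log2 scale (adjusted p = 0.285) and Isg20 1.61 ± 0.44 (adjusted p = 0.291). For both genes each intra-S liver was above each intra-C liver. The family medians were 0.03 for type I and -0.35 for gamma-type genes. They turned on the liver used, at 0.51 and 0.41 without intra-S liver 1 and -1.03 and -1.86 without intra-S liver 2. Without intra-S liver 2, 5 members were called higher and 24 lower, beside 1312 and 1572 genes in all, and without intra-S liver 1, 1 was called higher, Ifi27l2a, beside 24 genes in all.

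Other genes of the pathways were called in small numbers, to be read beside the 4.92% (intra-C) and 6.78% (intra-S) of all genes called higher. Of 8 tested negative regulators, Socs3, which blocks kinases of the JAK family and is induced mainly through STAT3, rose in both tumor groups, from 1.40 and 2.22 CPM in sham to 36.1 and 24.1 in intra-C and 9.86 and 31.0 in intra-S livers (4.05 ± 0.61 and 3.49 ± 0.60, adjusted p = 0.0195 and 0.0213). Ptpn2, a phosphatase of the JAK-STAT pathway, rose in intra-S livers (13.7 and 13.7 against 41.3 and 27.8 CPM, 1.33 ± 0.27, adjusted p = 0.0319). Of 19 sensing genes, 4 were called higher in each tumor group and none lower. Tlr7, an endosomal RNA sensor, read 1.40 and 1.68, 11.1 and 12.4, and 9.89 and 8.49 CPM (2.93 ± 0.26 and 2.57 ± 0.26, adjusted p = 0.00702 and 0.0062), and Tlr8, its relative, read 1.70 and 1.43, 16.4 and 14.7, and 8.14 and 9.81 CPM (3.31 ± 0.26 and 2.52 ± 0.26, adjusted p = 0.0058 and 0.00628). Sting1, the adaptor of cytosolic DNA sensing, was the third in both groups (2.31 ± 0.52 and 2.69 ± 0.53, adjusted p = 0.0499 and 0.0297), joined by Myd88 in intra-C (0.96 ± 0.21, adjusted p = 0.0476) and by the inflammasome sensor Aim2 in intra-S livers (2.05 ± 0.40, adjusted p = 0.0284). The tumor livers were above both sham livers for each of these genes.

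Of 32 other type I response genes, 2 were called higher in each group and none lower, Tor3a in both (1.73 ± 0.32 and 1.85 ± 0.32, adjusted p = 0.0315 and 0.021), Trim30a in intra-C (2.42 ± 0.52, adjusted p = 0.0444) and Trim30d in intra-S livers (3.62 ± 0.83, adjusted p = 0.0435). Of 26 genes of the gamma response and antigen processing, Nlrc5, the activator of MHC class I genes, and Serpina3g were called higher in intra-C, and Serpina3g, the checkpoint ligand Cd274 and the adhesion molecule Icam1 in intra-S livers. Serpina3g, a protease inhibitor, read 3.08 and 3.67, 21.08 and 22.6, and 13.2 and 29.7 CPM (2.69 ± 0.40 and 2.67 ± 0.40, adjusted p = 0.0191 and 0.0155). Cxcl11, a gamma-induced chemokine for T cells, fell in intra-C livers, from 1.18 and 2.17 CPM to 0.0509 and 0.0309 CPM (adjusted p = 0.0437), which stand for 2 and 1 counts, and read 0.262 and 1.47 CPM in intra-S livers (adjusted p = 0.486). Its intra-S values lie on both sides of the lower sham value.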

How the data were processed

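Bulk RNA-seq of 6 mouse livers, 2 a group, was analysed. Libraries were made with the NEBNext Ultra kit, which does not mark strand. The authors deposited raw counts per gene, which the submitters' processing notes credit to HISAT2 2.1.0, featureCounts (Subread 2.0.6) and mm10, and the authors also deposited TPM values calculated from them. The annotation is not given in the sources used here. Nothing beyond "biological replicates" is said of the mice, so p-values measure the spread between these livers.

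Later steps used Python 3.11.15 and R 4.3.3. Groups were compared by the quasi-likelihood test of edgeR 4.0.16 on counts (TMM, filterByExpr with a count minimum of 10, 1 fit of all 6 livers), adjusted by Benjamini-Hochberg over 16370 genes at 0.05. CPM on the log2 scale uses a prior count of 2. DESeq2 1.42.0, limma 3.58.1 on log2(TPM + 1) and log2(TPM + 0.1), other filters and normalizations, a replicate block, only the groups compared and leaving out each liver were alternatives. Where 1 liver remains in a group, it is assumed to vary like the others. The procedure was run on simulated counts with the same spread for every gene. Livers as unlike as the intra-S pair were not simulated. With 2 livers a group no permutation test can reach 0.05, so none was run.

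Members, families and lists were chosen with earlier results of these data known. Every member may be named. Values in each liver are given for STAT and IRF factors, called members (up to 6 a direction and comparison, mean of at least 1 CPM) and, by family, the most abundant member by TPM and the most changed called one. Of the pathway lists, the receptors and called genes (up to 6 a list) are named. Isg15, Gbp2, Gbp8, Gbp10, Igtp, Ifi47 and Tgtp2 were named with values after these were seen, as were Ifi204, Ifi205 and Ifi211. Shared sequence is the percentage of 100-base transcript windows (GENCODE vM21) found in another gene. Results for some members are not reported here, although counts over all members include them.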

Additional observations from a re-analysis of the deposited data

Results flagged for a closer look

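Irf2 lay on opposite sides of sham in the tumor groups: both intra-C livers were above both sham livers and both intra-S livers below both. Neither group's difference from sham was called (adjusted p = 0.163 and 0.464, and 0.0342 to 0.556 and 0.153 to 0.785 over the alternatives). In intra-C livers it was called higher in the fit of only those groups and without either intra-S liver. The direct difference, intra-S minus intra-C, was -0.68 on the log2 scale and did not pass edgeR's quasi-likelihood test (adjusted p = 0.291, and 0.0228 to 0.76 over the alternatives). No other tested member met this description, and groups of 2 livers are too small for a test of single outlying livers. Of all genes, 34.4% had both intra-C livers above sham and 30.0% both intra-S livers below. The share of all genes with both at once was not counted, so Irf2 cannot be set against it.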

How the results depend on the processing

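Of the members called higher in intra-C against sham (7), DESeq2 gave 13, a fit of only those groups 25, library sizes without TMM 4, limma on log2(TPM + 1) 2 and on log2(TPM + 0.1) 4, and leaving out 1 liver 0 to 25. Called lower (0) were 7 in the fit of only those groups and 0 to 7 without 1 liver. For intra-S against sham, the 10 called higher became 3 in the fit of only those groups, 6 with limma on log2(TPM + 1) and 0 to 28 without 1 liver, and the 0 called lower became 1 with DESeq2 and 0 to 23 without 1 liver. For intra-S against intra-C, the 0 called higher became 2 with DESeq2 and 0 to 5 without 1 liver, and the 0 called lower 0 to 24. The gamma-type median in intra-C (0.05) was -0.21 without TMM and -0.13 with limma on log2(TPM + 0.1). Without 1 liver, the medians in intra-S against sham ranged from -0.49 to 1.01 (type I) and from -1.97 to 0.49 (gamma-type), and against intra-C from -1.03 to 0.51 and from -1.86 to 0.41. Ifitm3 ranged from -0.85 (without intra-S liver 2, adjusted p = 0.00694) to 0.95 against sham without 1 liver. The cause of these changes was not tested. The 2 filters on low counts, TMM without the 100 most abundant genes and the replicate block moved none of these counts over 1.5 times and none of the medians beyond the spread between livers. That spread is wide for the intra-S livers, where the gamma-type median against sham still went from -0.16 to -0.60 with the replicate block. The filter of at least 10 counts in every liver left Ifitm6 untested. With the replicate block, 5 members were called higher in intra-C (beside 673 genes in all) and 10 in intra-S against sham (beside 954), and 0 between the tumor groups. Livers of the same number did not deviate together over all genes (correlations -0.03, 0.08 and 0.04). With 2 livers a group this cannot exclude that the numbers pair them. Each group holds 2 livers.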
